A study of Homo sapiens with 6 samples.

Results

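The genes described here were 9 alveolar type II and endoderm lineage genes, chosen by name: SFTPB, SFTPC, SFTPD and NAPSA, which encode products of alveolar type II cells, and NKX2-1, FOXA1, FOXA2, GATA6 and HNF4A, which encode transcription factors of the lung and gut endoderm. All 9 had a row among the 32192 genes of the count table and among the 31951 genes of the FPKM table (fragments per kb of gene length, scaled to the mapped reads of each library). Their RNA was measured in A549 cells, an established line from a human lung adenocarcinoma that is often used as a model of alveolar type II cells. The cells were transiently transfected with plasmids, 3 libraries with APEX1 overexpression (APEX1-OE) and 3 with a control plasmid (Ctrl). APEX1, a DNA repair endonuclease and redox factor, was carried by the pIRES-hrGFP-1a vector with a FLAG tag, and the endogenous APEX1 gene remained in both groups. The libraries were stranded, polyadenylated mRNA libraries made from whole cultures, so that fewer cells expressing a gene and less RNA per cell cannot be told apart. The time between transfection and RNA extraction was not given in the sources used here, and nothing in the labels tells whether the libraries came from separate cultures, so the p-values measure only the spread between these libraries.

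Alveolar type II cells make and secrete surfactant, a film of lipids and proteins that lowers the surface tension of the alveolus, and they renew the alveolar epithelium. In the lung NKX2-1 is the lineage factor that drives surfactant genes together with FOXA1, FOXA2 and GATA6, whereas HNF4A is a factor of liver and gut that the normal lung epithelium hardly uses. Loss of NKX2-1 together with a gain of HNF4A and of gastric or intestinal genes is a known state of mucinous lung adenocarcinoma.

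Promoter sequence was found for 7 of the 9 genes in the RefSeq table of the assembly GRCh38.p14, and not for SFTPC and FOXA2. The 250 bases before the start are shown for 2 genes with a few reads per library, SFTPB and NKX2-1, and for 2 alveolar genes that were detected, SFTPD and NAPSA, so that the regulatory sequence can be read beside the levels. All 4 genes lie on the minus strand, and the windows are chr2:85668200-85668449 for SFTPB, chr14:36520233-36520482 for NKX2-1, chr10:79949106-79949355 for SFTPD and chr19:50365640-50365889 for NAPSA, each written 5′ to 3′ along the gene. Capitals mark the letters of 4 short core motifs, searched on both strands. The first FOXA core was TGTTTA. The second FOXA core, which can overlap it, was TGTTTG. The core of NKX2 factors was spelled CAAGTG. The core of GATA factors was spelled GATAA.
SFTPB: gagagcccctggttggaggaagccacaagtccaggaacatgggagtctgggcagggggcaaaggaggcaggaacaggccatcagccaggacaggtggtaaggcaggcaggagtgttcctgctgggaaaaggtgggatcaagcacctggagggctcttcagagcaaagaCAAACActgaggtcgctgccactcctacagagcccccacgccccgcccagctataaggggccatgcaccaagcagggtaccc
NKX2-1: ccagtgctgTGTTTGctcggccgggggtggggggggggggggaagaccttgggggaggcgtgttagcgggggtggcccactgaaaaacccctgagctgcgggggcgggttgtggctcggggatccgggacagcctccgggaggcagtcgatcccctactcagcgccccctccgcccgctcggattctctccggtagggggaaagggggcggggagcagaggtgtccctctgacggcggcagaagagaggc
SFTPD: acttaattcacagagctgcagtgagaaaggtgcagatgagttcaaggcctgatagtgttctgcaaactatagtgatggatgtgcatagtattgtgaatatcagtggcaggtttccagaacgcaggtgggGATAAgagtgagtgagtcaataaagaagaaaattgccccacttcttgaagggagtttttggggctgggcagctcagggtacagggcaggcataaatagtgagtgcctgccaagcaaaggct
NAPSA: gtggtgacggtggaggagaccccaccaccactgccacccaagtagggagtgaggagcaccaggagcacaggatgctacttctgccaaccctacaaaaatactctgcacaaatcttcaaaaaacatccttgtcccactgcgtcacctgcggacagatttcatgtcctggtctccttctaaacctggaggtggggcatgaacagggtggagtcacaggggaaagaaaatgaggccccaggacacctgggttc
The SFTPB window held 1 second FOXA core on the reverse strand, at -82 to -77 from the start, and the NKX2-1 window held 1 at -241 to -236. The SFTPD window held 1 GATA core at -121 to -117, and in the NAPSA window none of the 4 was found. Of the windows not printed, FOXA1 held the second FOXA core and the NKX2 core, GATA6 held both FOXA cores in overlap, and HNF4A held the GATA core. These letters are common: among 35116 RefSeq windows of the same length, 11.0% held the first FOXA core, 12.8% the second, 9.50% the NKX2 core and 20.4% the GATA core. Binding was not measured, and a match is only a description of the sequence. Only these exact spellings were searched, so a window without a match, such as SFTPB for the NKX2 core, can still hold a binding site.

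The depth of the libraries lay between 28131955 and 41009197 counts. Values by library are given in the order of replicates 1, 2 and 3. The normalized level of APEX1, in CPM (counts scaled to a common library size with TMM factors), was 1272, 1185 and 1300.2 with the APEX1 plasmid and 244, 243 and 214 with the control plasmid. It was the 1 gene called among 16971 tested, with a log2 fold change of 2.42 ± 0.171 (SE; edgeR quasi-likelihood test, adjusted p = 0.00809). APEX1 transcripts of the plasmid and of the chromosome were not separated. The first principal component of log2 CPM held 72.6% of the variance and did not separate the plasmids, with APEX1-OE replicate 1 and Ctrl replicates 1 and 2 on one side, and APEX1-OE replicates 2 and 3 and Ctrl replicate 3 on the other.

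A549 cells in these libraries held RNA of 4 of the 5 lineage transcription factors, but only a few reads of NKX2-1, SFTPB and SFTPC. In FPKM, averaged over the 6 libraries, FOXA2 was highest at 10.7, followed by FOXA1 at 3.64, SFTPD at 3.30, HNF4A at 1.81, GATA6 at 1.69 and NAPSA at 1.38. SFTPC at 0.045, SFTPB at 0.0267 and NKX2-1 at 0.0133 followed far below. Ranked among the 31951 genes from the top, FOXA2 was at place 4117, NAPSA at 10605 and NKX2-1 at 25252. On the deposited FPKM the set therefore contained 6 genes with a mean above 1, and 3 genes had fewer than 10 counts in every library.

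Neighbours in this order were not all separable. FOXA2 exceeded FOXA1 in 6 of 6 libraries with a ratio of mean FPKM of 2.94, and the ranges did not overlap. FOXA1 and SFTPD overlapped, with FOXA1 higher in 4 of 6 libraries. SFTPD exceeded HNF4A in 6 of 6 libraries, with no overlap of the ranges and a ratio of 1.83, whereas HNF4A and GATA6, and GATA6 and NAPSA, overlapped. The gap that separated the set was between NAPSA and SFTPC, a ratio of 30.6 in mean FPKM. NAPSA shares exon bases with NR1H2 on the opposite strand, as given below. The gene lengths behind the deposited FPKM were not given in the sources used here. With counts per kb of GENCODE release 44 exons, an alternative chosen after seeing the data, SFTPD moved from place 3 to place 5, below GATA6 and HNF4A, while FOXA2, FOXA1 and NAPSA had the same places and the same 3 genes were lowest.

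**Figure D1:**
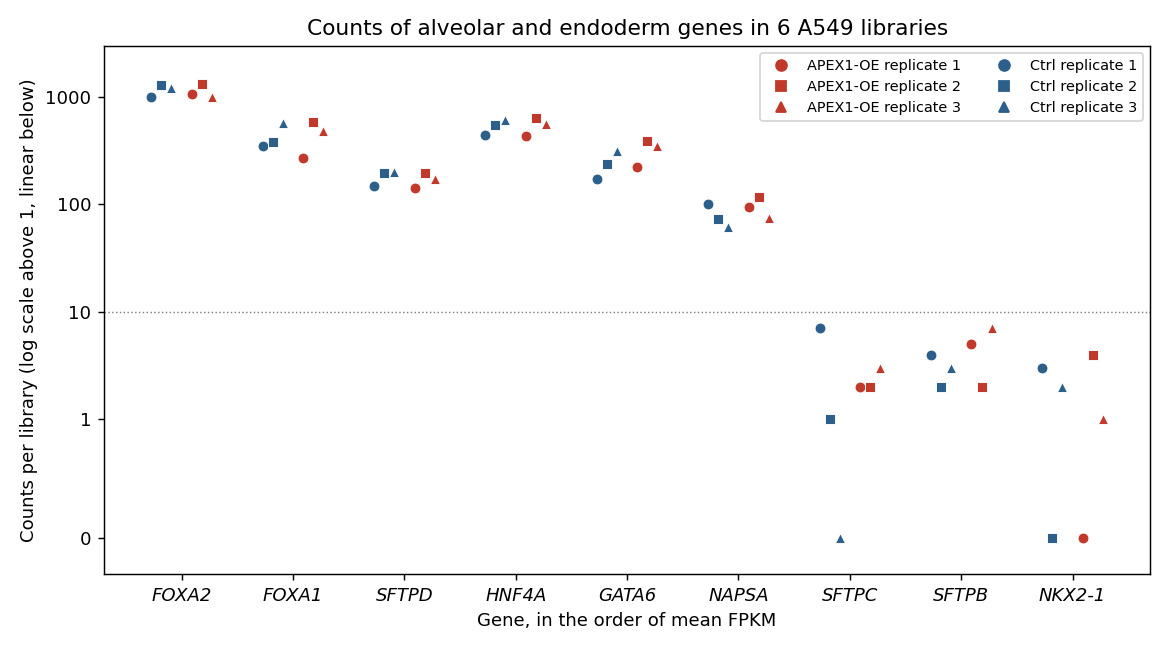
Counts per library (vertical axis, logarithmic above 1 and linear below) of the 9 genes, placed in the order of mean FPKM, for 3 APEX1-OE libraries (red) and 3 Ctrl libraries (blue), with 1 point per library. SFTPC, SFTPB and NKX2-1 lie under the dotted line at 10 counts in all 6 libraries, and the other 6 genes lie above it, with a lowest value of 62 counts for NAPSA.

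NKX2-1 (ENSG00000136352.17; GRCh38 chr14:36516392-36521149, minus strand) is the homeobox factor that specifies lung and thyroid. The APEX1-OE libraries held 0, 4 and 1 counts of it, and the Ctrl libraries 3, 0 and 2. With such counts neither group was higher. The sum was 5 counts in either group. A count of 0 allows up to 3 counts, which is 0.103 CPM in APEX1-OE replicate 1 and 0.0872 CPM in Ctrl replicate 2, for counting error only. NKX2-1 did not pass the filter on low counts, and no fold change is given.

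FOXA1 (ENSG00000129514.5; chr14:37589552-37596059, minus strand) and FOXA2 (ENSG00000125798.14; chr20:22580998-22585455, minus strand) are forkhead pioneer factors that open chromatin in foregut endoderm. FOXA2 had 1064, 1323 and 1000 counts in the APEX1-OE libraries and 1014, 1310 and 1213 in the Ctrl libraries. After normalization these were 40.4, 31.2 and 26.9 CPM in APEX1-OE and 37.7, 39.8 and 30.9 CPM in Ctrl. The groups overlapped, and the highest and lowest libraries were both APEX1-OE. APEX1-OE averaged 32.8 ± 6.90 CPM (SD, n = 3 libraries), and Ctrl averaged 36.1 ± 4.64 CPM (SD, n = 3). The log2 fold change of FOXA2 was -0.14 with a 95% interval from -0.67 to 0.39 (edgeR, adjusted p = 1.00).

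FOXA1 had 271, 582 and 480 counts in APEX1-OE and 352, 382 and 574 counts in Ctrl. Its normalized level was 10.3, 13.7 and 12.9 CPM in APEX1-OE and 13.1, 11.6 and 14.6 CPM in Ctrl. Again the groups overlapped, with the lowest library in APEX1-OE and the highest in Ctrl. The means were 12.3 ± 1.79 CPM (SD, n = 3) and 13.1 ± 1.51 CPM (SD, n = 3). FOXA1 had a log2 fold change of -0.09 (95% interval -0.62 to 0.44; edgeR, adjusted p = 1.00). Without APEX1-OE replicate 1 it was 0.0060, so its sign rested on that library.

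GATA6 (ENSG00000141448.8; chr18:22169589-22202528, plus strand) is a zinc finger factor of endoderm and of alveolar epithelial differentiation. It had 224, 394 and 350 counts in the APEX1-OE libraries and 173, 239 and 312 in the Ctrl libraries. In normalized CPM GATA6 was 8.50, 9.28 and 9.41 in APEX1-OE and 6.43, 7.26 and 7.95 in Ctrl. All 3 APEX1-OE libraries thus lay above all 3 Ctrl libraries, and GATA6 was the only one of the 6 tested genes whose groups did not overlap on this scale. Over all tested genes the groups did not overlap in 3.39%. On the FPKM scale the GATA6 groups did overlap, at 1.56, 2.02 and 2.10 in APEX1-OE and 1.29, 1.43 and 1.74 in Ctrl. CPM without the TMM factors overlapped too, at 7.73, 9.61 and 9.93 in APEX1-OE and 6.15, 6.95 and 8.71 in Ctrl. The log2 fold change was 0.33 ± 0.217 (SE; 95% interval -0.17 to 0.83), and the test was not passed (edgeR, unadjusted p = 0.166, adjusted p = 1.00).

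HNF4A (ENSG00000101076.16; chr20:44355699-44432845, plus strand), the nuclear receptor of hepatocytes and intestinal epithelium, had 438, 638 and 567 counts in APEX1-OE and 446, 556 and 614 in Ctrl. Normalized, it was 16.6, 15.0 and 15.2 CPM in APEX1-OE and 16.6, 16.9 and 15.6 CPM in Ctrl. The groups overlapped. HNF4A was the steadiest of the 6 tested genes, with the highest library 1.12 times the lowest and a coefficient of variation of 4.97%. Its log2 fold change was -0.07 (95% interval -0.53 to 0.40; edgeR, adjusted p = 1.00). HNF4A has 2 starts in the RefSeq table, and the counts sum over its transcripts.

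Among the alveolar products, SFTPB (ENSG00000168878.16; chr2:85657314-85668741, minus strand) encodes the hydrophobic surfactant protein that is needed for a stable film. It had 5, 2 and 7 counts in APEX1-OE and 4, 2 and 3 counts in Ctrl. SFTPC (ENSG00000168484.12), whose hydrophobic product is the most specific marker of alveolar type II cells, had 2, 2 and 3 counts in APEX1-OE and 7, 1 and 0 counts in Ctrl. The groups overlapped for both genes, and the sums were 14 against 9 counts for SFTPB and 7 against 8 for SFTPC. The highest single value was 0.199 CPM for SFTPB and 0.249 CPM for SFTPC. SFTPC shares 89 exon bases with LGI3, a gene on the opposite strand with 81 to 115 counts per library, and the use of strand in counting was not given in the sources used here. At this depth no difference between the groups could be shown for either gene.

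SFTPD (ENSG00000133661.15; chr10:79937467-79982614, minus strand) encodes a collectin, a secreted lectin of innate defence that is also made outside the alveolus. It had 142, 197 and 174 counts in APEX1-OE and 148, 195 and 201 counts in Ctrl. The normalized CPM of SFTPD, 5.39, 4.64 and 4.68 in APEX1-OE and 5.50, 5.92 and 5.12 in Ctrl, overlapped by the value of APEX1-OE replicate 1. The log2 fold change from the counts was -0.17 (95% interval -0.67 to 0.33; edgeR, unadjusted p = 0.453, adjusted p = 1.00).

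The deposited FPKM gave another picture for SFTPD, at 3.05, 3.10 and 3.22 in APEX1-OE and 3.39, 3.59 and 3.46 in Ctrl. Here all 3 APEX1-OE libraries were below all 3 Ctrl libraries, with means of 3.12 ± 0.0874 (SD, n = 3) and 3.48 ± 0.101 (SD, n = 3). Groups that do not overlap were found in 3.10% of all genes of the FPKM table. CPM of SFTPD without the TMM factors did not overlap either, at 4.90, 4.80 and 4.94 in APEX1-OE and 5.26, 5.67 and 5.61 in Ctrl. With limma on log2(FPKM + 1) the difference was -0.12 with an unadjusted p of 0.00845 and an adjusted p of 1.00, and 2.01% of all genes had an unadjusted p under 0.05 in that test. With a pseudocount of 0.1 the unadjusted p from limma was 0.230. The mean of SFTPD was thus lower in APEX1-OE on each of these scales, and no adjusted test was passed.

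NAPSA (ENSG00000131400.7; chr19:50358472-50365830, minus strand) encodes napsin A, the aspartic protease that processes surfactant protein B and a marker of lung adenocarcinoma. It had 94, 117 and 75 counts in APEX1-OE and 102, 73 and 62 counts in Ctrl. The normalized level was 3.57, 2.76 and 2.02 CPM in APEX1-OE and 3.79, 2.22 and 1.58 CPM in Ctrl, so that the highest and lowest libraries were both Ctrl. NAPSA varied most among the 6 tested genes, with the highest library 2.40 times the lowest and a coefficient of variation of 33.3%. The log2 fold change was 0.14 with a wide 95% interval from -0.72 to 1.01 (edgeR, adjusted p = 1.00). It was -0.08 without APEX1-OE replicate 1 and -0.11 without Ctrl replicate 3. The NAPSA gene lies within NR1H2 on the opposite strand, and 1182 of its 3586 exon bases (33.0%) are also exons of NR1H2, which had 5468 to 7919 counts per library. Without knowledge of how strand was used in counting, reads of these 2 genes cannot be told apart in the shared bases.

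In all, 0 of the 6 tested lineage genes were called between APEX1-OE and Ctrl, beside 0.00589% of all tested genes. An unadjusted p under 0.05 was reached by 0 of the 6 with edgeR and with DESeq2. Such values were rare, at 118 of all 16971 tested genes with edgeR and 106 with DESeq2. The median log2 fold change of the 6 genes was -0.08, beside 0.03 over all tested genes. It was positive for 2 and negative for 4 of them, beside 9759 positive and 7212 negative over all tested genes. The intervals, which reach at most 1.01 on the log2 scale upward and -0.72 downward, bound the sizes of change that these libraries leave possible for the 6 genes.

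**Figure D2:**
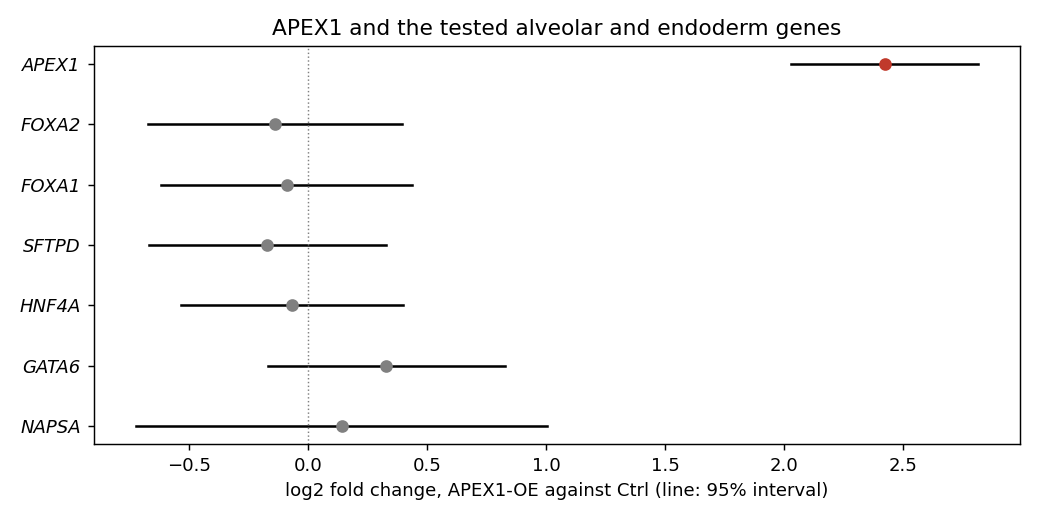
Log2 fold change of APEX1-OE against Ctrl (horizontal axis) for APEX1 and the 6 tested lineage genes, with points for the edgeR estimate and lines for the 95% interval over 3 libraries per group. The interval of APEX1 lies far to the right of 0 around 2.42, and those of all 6 lineage genes include 0.

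FOXA2, SFTPD, HNF4A, NAPSA and FOXA1 differed more between the sides of the first principal component than between the plasmids, and GATA6 did not. The 3 libraries with Ctrl replicate 3 and the 3 others were divided by the component itself, which was computed from all tested genes including these, so the differences between the sides are given as a description. FOXA2 was between 26.9 and 31.2 CPM in the 3 libraries on the side of Ctrl replicate 3 and between 37.7 and 40.4 CPM in the other 3, a log2 difference of -0.41. SFTPD and HNF4A were lower there as well, by log2 differences of -0.22 and -0.13, also with no overlap. Thus 3 of 6 tested genes were lower on that side without overlap, beside 30.9% of all tested genes, and 0 of 6 were higher without overlap, beside 35.5%. The sides overlapped for NAPSA, GATA6 and FOXA1, with differences of -0.58, 0.27 and 0.24.

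Within each side GATA6 was higher with APEX1: APEX1-OE replicate 1, at 8.50 CPM, lay above Ctrl replicates 1 and 2, at 6.43 and 7.26, and APEX1-OE replicates 2 and 3, at 9.28 and 9.41, lay above Ctrl replicate 3, at 7.95. This had to be so for any split of the libraries, since the GATA6 groups did not overlap on this scale. FOXA1 was lower with APEX1 within each side, at 10.3 CPM against 13.1 and 11.6, and at 13.7 and 12.9 CPM against 14.6. SFTPD was lower within each side too, at 5.39 CPM against 5.50 and 5.92, and at 4.64 and 4.68 CPM against 5.12. FOXA2, NAPSA and HNF4A did not go one way within both sides. Thus 1 of the 6 genes was higher within both sides, beside 17.8% of all tested genes, and 2 were lower, beside 10.0%. With the side as a term in edgeR, the log2 fold change was 0.27 for GATA6 (unadjusted p = 0.0631, adjusted p = 0.455) and -0.19 for FOXA1 (unadjusted p = 0.136, adjusted p = 0.549). NAPSA stood at 0.42 in the same fit (edgeR, unadjusted p = 0.0993, adjusted p = 0.510), SFTPD stood at -0.11 (edgeR, unadjusted p = 0.465), and FOXA2 moved from -0.14 to -0.02. With this term 0 of the 6 genes were called by edgeR, beside 0.0236% of all tested genes, and 0 had an unadjusted p under 0.05, beside 11.6%.

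**Figure D3:**
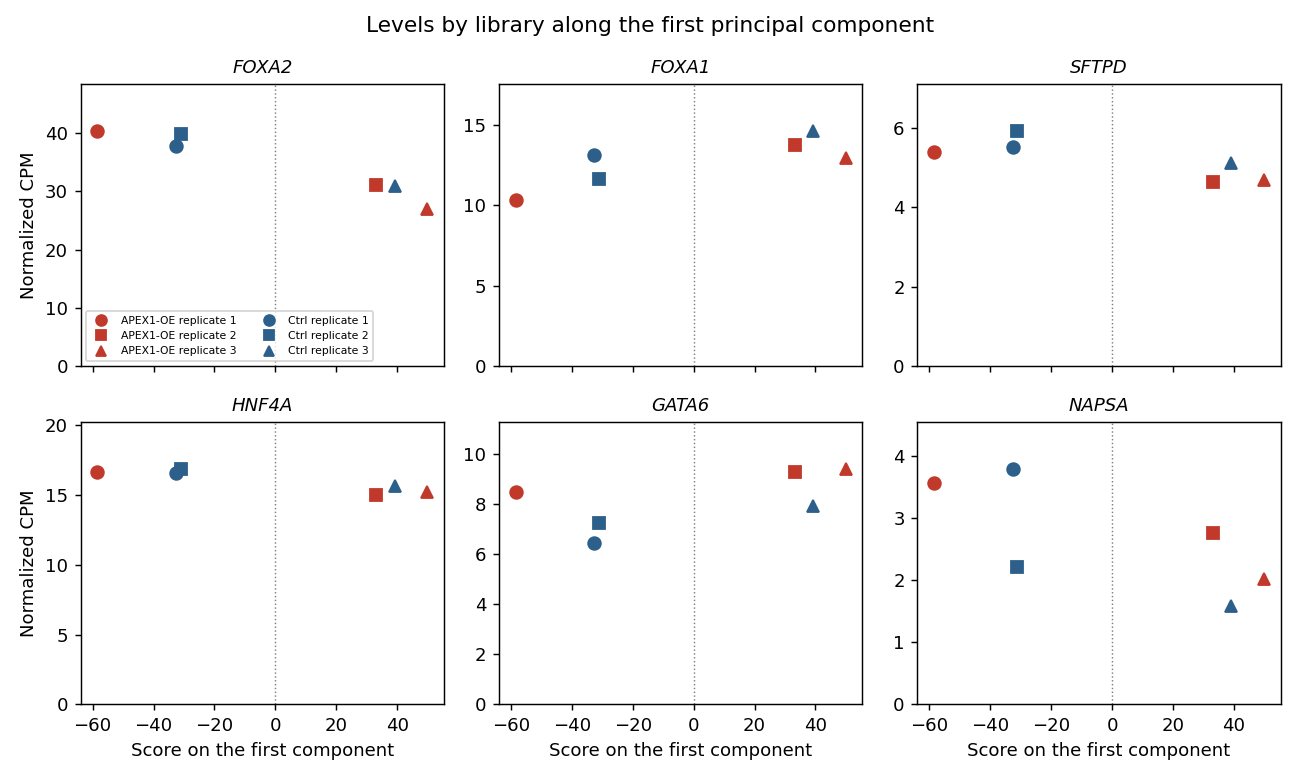
Normalized CPM (vertical axis, from 0) of the 6 tested lineage genes against the score of each library on the first principal component of log2 CPM (horizontal axis, no unit), with APEX1-OE in red and Ctrl in blue and 1 symbol per replicate number. FOXA2, SFTPD and HNF4A are lower in the 3 libraries right of 0. GATA6 is higher in all APEX1-OE libraries than in all Ctrl libraries, and therefore on both sides of 0.

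Over the 6 libraries, the log2 CPM of FOXA2 had a Pearson r of -0.965 with the component, HNF4A -0.913, SFTPD -0.803, NAPSA -0.717, FOXA1 0.795 and GATA6 0.570. Among the lineage genes SFTPD and HNF4A had the highest mutual r, 0.964. The tested genes with the most similar pattern were GNPTG for SFTPD (r = 0.992), EME2 for NAPSA (r = 0.993), UNC13B for FOXA1 (r = 0.993), KLHL3 for GATA6 (r = 0.991) and CD82 for HNF4A (r = 0.997). Each was picked as the highest of all tested genes over 6 shared libraries with a common axis of variation, and is given only as a description.

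Other marker genes placed the 9 genes within the cell line. The lists held 65 further genes, chosen as known markers of alveolar, airway, endoderm, liver and gut, epithelial and other cells. Of 10 other alveolar type II genes, 6 had a mean FPKM of at least 1, led by LPCAT1 (43.8), an enzyme of surfactant lipid synthesis, ETV5 (12.5), a transcription factor, ABCA3 (11.5), the lipid transporter of lamellar bodies, and CTSH (10.6), a protease that processes surfactant proteins. The other 4 were absent from the count table (SFTPA1) or had fewer than 10 counts in every library. SFTPA2, a surfactant protein A gene, had 1 count in 2 libraries and 0 in the other 4, as did SLC34A2, the phosphate transporter of alveolar type II cells. SFTPA2, SFTPB, SFTPC and SLC34A2 were thus at or near 0, whereas SFTPD, LPCAT1, ETV5, ABCA3 and CTSH were above an FPKM of 1. SFTPD is also made outside the alveolus. How specific LPCAT1, ETV5, ABCA3 and CTSH are to alveolar type II cells was not examined, so their levels do not show a type II state.

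Alveolar type I markers were represented by CAV1 (76.7 FPKM) and CAV2 (19.2), which encode caveolins and are used by many cell types, whereas AGER, the specific marker, was at 0.473 and AQP5 and HOPX had no row. Among 8 airway markers, TP63 (1.13), MUC5B (1.07) and SOX2 (1.01) were just above an FPKM of 1, and MUC5AC was at 0.127. SCGB1A1, FOXJ1 and KRT5 had fewer than 10 counts in every library, and SCGB3A2 had no row.

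Of 11 other endoderm transcription factors 5 reached an FPKM of 1, among them SOX9 (4.44), above HNF4A, and GATA4 (1.27), below it. Of 14 liver and gut genes, many of them known targets of HNF4A, 5 reached it: the fibrinogen genes FGA (72.7), FGG (51.1) and FGB (13.9), CPS1 (9.01), the first enzyme of the urea cycle, and APOH (1.345), a plasma glycoprotein gene. Another 4 of the 14, ALB (albumin), APOA1 and APOB (apolipoproteins) and TTR (transthyretin), had fewer than 10 counts in every library. The gut genes of this list, VIL1, LGALS4 and CDH17, did not reach an FPKM of 1 either. Their normalized means in Ctrl were 0.435, 0.933 and 1.75 CPM. CDX2, among the other endoderm factors, was also below an FPKM of 1, at 1.22 CPM in Ctrl. Of 6 epithelial markers 5 reached an FPKM of 1, and the keratins among them were far higher, led by KRT8 at 3046, KRT18 at 2464 and KRT7 at 2007 FPKM. EPCAM, of the same list, did not reach it, with a mean FPKM of 0.342 and 15 to 47 counts per library.

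Of 8 markers of other cells, 2 reached an FPKM of 1. CD14, a monocyte gene that epithelial cells can also express, was at 2.435 FPKM, above HNF4A, GATA6 and NAPSA, and CD68, a lysosomal protein gene of macrophages and other cells, was at 1.29. The fibroblast collagen gene COL1A1 was at 0.598, and the leukocyte marker PTPRC had 1 count in 1 library and 0 in the others.

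Of the 65 genes 45 passed the filter. With edgeR, 0 of these 45 were called between APEX1-OE and Ctrl or had an unadjusted p under 0.05, beside 118 of all 16971 tested genes for the latter. DESeq2 also called 0 of them. In the fit with the library side as a term, 6 of the 45 had an unadjusted p under 0.05, beside 11.6% of all tested genes, and 0 were called. Of these 6, KRT7 (0.34) and KRT19 (0.28) had positive log2 fold changes. Those of CPS1 (-0.36), CDH1 (-0.35), SOX2 (-0.53) and the transferrin gene TF (-0.81) were negative (edgeR, adjusted p from 0.350 to 0.398 for the 6). In the fit without that term, the median log2 fold change was -0.02 for the 6 tested alveolar type II genes and -0.04 for the 10 endoderm factors. It was -0.11 for the 10 liver and gut genes, of which 9 were negative, beside 7212 of all 16971 tested genes. For the 4 type I genes it was 0.22, for the 4 airway genes 0.01, for the 6 epithelial genes 0.02 and for the 5 genes of other cells -0.16.

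**Figure D4:**
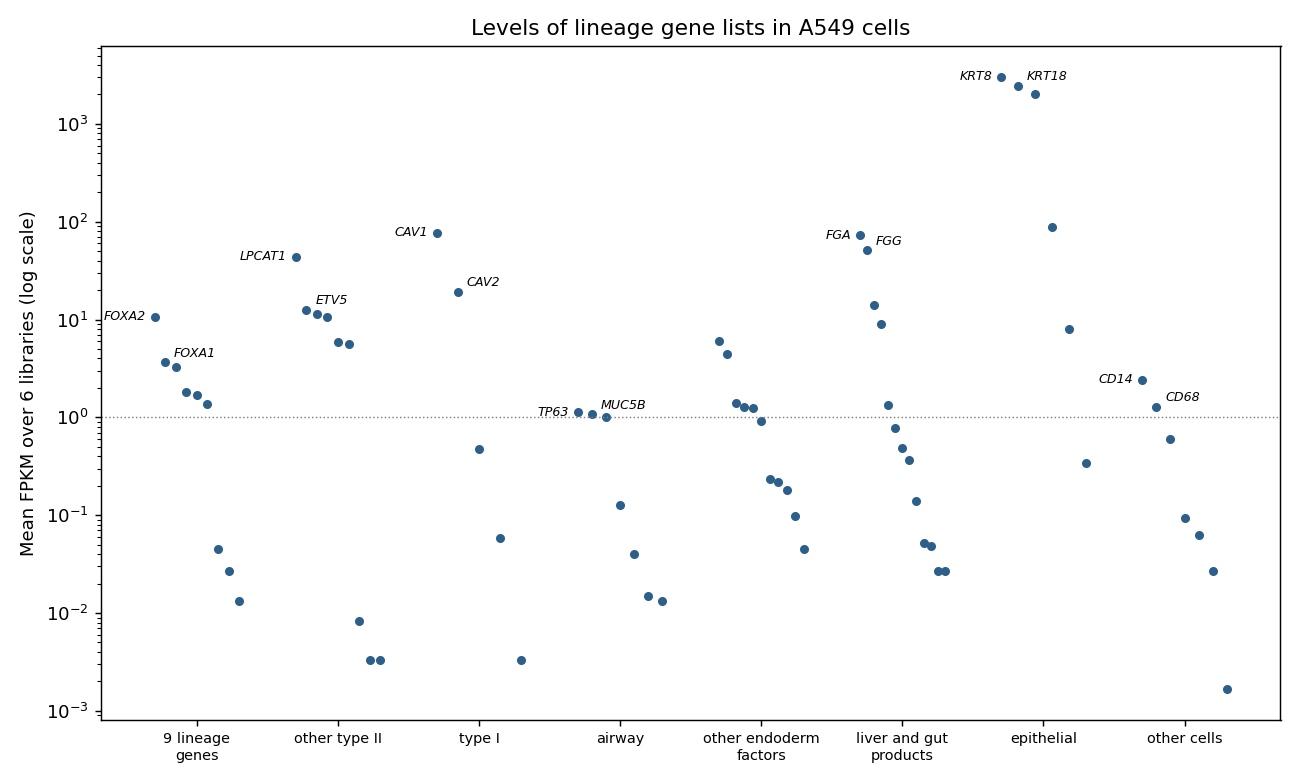
Mean FPKM over 6 libraries (vertical axis, logarithmic) of the 9 lineage genes and of 7 lists of marker genes (horizontal axis), with 1 point per gene for the 67 genes of 74 that had a mean FPKM above 0, and the 2 highest of each list named except among the other endoderm factors. The dotted line marks an FPKM of 1, above which lie 6 of the 9 lineage genes and 6 of the other alveolar type II genes.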

How the data were processed

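RNA-seq libraries of A549 cells, 3 APEX1-OE and 3 Ctrl, were grouped by the sample labels. Reads were trimmed by the authors (FASTX-Toolkit) and mapped with TopHat2 to GRCh38, and unique alignments were kept. The authors deposited raw counts per gene, and FPKM rounded to 2 decimals. The counting tool, annotation, gene lengths and use of strand were not given in the sources used here.

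Counts were analysed in R 4.3.3 with edgeR 4.0.16: filterByExpr (minimum count 10, minimum total 15), TMM, the robust quasi-likelihood test with condition as the only term, and Benjamini-Hochberg adjustment over all 16971 tested genes at 0.05. SE and 95% intervals came from the same fit. Alternatives used DESeq2 1.42.0, limma 3.58.1 on log2(FPKM + 1) and log2(FPKM + 0.1), RLE scaling, no filter, the replicate number, the side of the first principal component, and each library left out. The edgeR test was run on simulated counts drawn gene by gene, with the outcome not reported here. They held no axis of variation shared between genes, so this check does not cover the first principal component. Log2 CPM for the component and for correlations used a prior count of 2. Coordinates and exon overlaps came from GENCODE release 44, promoters from RefSeq, read with Python 3.11.15.

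The members, marker lists and the component term were chosen with earlier results of these data known. The genes named were the 9 members, APEX1, up to 4 genes per list with the highest mean FPKM, and the tested genes most correlated with each tested member. NR1H2, LGI3, APOH, EPCAM, CDH1, TF, VIL1, LGALS4, CDH17 and CDX2 were named after their values were seen. So were the list genes named for absence or near absence (SFTPA1, SFTPA2, SLC34A2, AQP5, HOPX, SCGB1A1, SCGB3A2, FOXJ1, KRT5, PTPRC, ALB, APOA1, APOB and TTR). Total counts were between 28131955 and 41009197 per library, which sets 3 counts, the limit that a count of 0 allows, at 0.0732 to 0.107 CPM. Limits of this kind cover counting error only. Some genes that this rule names are not reported here. Splicing was not analysed here.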

Additional observations from a re-analysis of the deposited data

How the results depend on the processing

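Over 13 alternatives, 0 of the tested lineage genes were called, and the lowest adjusted p was 0.455, for GATA6 in edgeR with the library side of the first principal component as a term. Without APEX1-OE replicate 2 or 3, or without Ctrl replicate 1 or 2, APEX1 itself was not called. The absence of called lineage genes in those settings therefore carries little weight. Of 78 log2 fold changes, 75 had the direction of the reported value. The 3 that reversed came from leaving out libraries: NAPSA was -0.08 without APEX1-OE replicate 1 and -0.11 without Ctrl replicate 3, in a range from -0.11 to 0.54, and FOXA1 was 0.0060 without APEX1-OE replicate 1, in a range from -0.18 to 0.0060. The cause was not tested. Over all alternatives GATA6 lay between 0.22 and 0.40, FOXA2 between -0.33 and -0.02, SFTPD between -0.26 and -0.11 and HNF4A between -0.13 and -0.03.

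The count of genes called, 1 as reported, was 10 with no filter on low counts, 2 with the replicate block and 4 with the library side as a term. With 1 library left out it was 0 to 1, and 0 without APEX1-OE replicate 2 or 3 or Ctrl replicate 1 or 2. Deviations of same-numbered libraries from their group means correlated at 0.607, -0.521 and 0.700. Of the differently numbered pairs, APEX1-OE replicate 1 with Ctrl replicate 2 reached 0.636. APEX1-OE replicate 2 with Ctrl replicate 3 reached 0.670, and the rest were negative. Positive values occurred only between libraries on the same side of the first principal component. They therefore cannot decide whether the replicate numbers pair the libraries. With counts per kb of GENCODE exons, an alternative chosen after seeing the data, SFTPD took place 5, GATA6 place 3, SFTPB place 7 and SFTPC place 8. The lowest 3 genes were limited by depth, since none exceeded 7 counts in a library.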
